A study of Mus musculus with 6 samples.

Results

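Myosins are the motors that walk along actin filaments. A class II myosin is built from 2 heavy chains, each carrying an essential and a regulatory light chain, and it contracts muscle fibres as well as the actin cortex of nonmuscle cells. Unconventional myosins, the other classes, carry membranes and cargo along actin, tether membranes to the cortex or, in class IX, act on small GTPases. In liver, nonmuscle class II chains are known from the contraction of bile canaliculi and of stellate cells, and Myo5b from the delivery of membrane proteins to the canaliculus. The genes described here are the protein-coding rows of the deposited table named Myh, Myl or Myo followed by a number. There were 50 of them among 43346 genes, with 14 class II heavy chains, 11 light chains and 25 unconventional heavy chains.

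RNA was sequenced from livers of mice kept on a diet that the labels call FFC, in a dietary model of metabolic dysfunction-associated steatohepatitis. Libraries 2, 3 and 2600 carry a knockdown label and an shRNA to silence S100a11, a small protein that binds calcium. It was delivered with an AAV8 construct, an adeno-associated viral vector of serotype 8. Libraries 28, 30 and 31 are labelled as control with a scrambled shRNA, on the same diet. Strain, age, sex, the promoter driving the hairpin and the time of sampling are not stated in the labels, and all 6 livers share the diet and an shRNA. The labels do not say that each library is a separate animal, so p-values measure the spread between libraries.

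The libraries held 53517387 to 78091845 counts. S100a11 itself had 16.0, 3.55 and 3.41 CPM in libraries 2, 3 and 2600 labelled S100a11 shRNA, against 15.9, 22.9 and 30.0 CPM in scrambled libraries 28, 30 and 31. CPM are counts scaled to 1e6 per library, with TMM factors for library composition. Library 2 thus stood close to scrambled library 28. The log2 change of S100a11 was -1.57 ± 0.56 (SE), with an edgeR adjusted p of 0.0951 over all 6 libraries, and -2.75 with an adjusted p of 0.00044 without library 2. The liver genes Alb, Apoa1 and Ttr were high in all 6 libraries (Alb 21195 to 31083 CPM in S100a11 shRNA libraries, against 18116 to 22845 CPM in scrambled libraries). The noncoding RNA Gm26917 took 3.99% to 10.8% of the counts in S100a11 shRNA libraries and 3.16% to 4.42% in scrambled libraries.

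Of the 50 myosin genes, 37 had enough counts to be tested. Of these, 10 fell and 0 rose in edgeR's quasi-likelihood test with a Benjamini-Hochberg adjusted p under 0.05. At an unadjusted p under 0.05, 1 was higher and 16 were lower, and DESeq2 and limma voom likewise called 0 higher. That is 27.0% of the tested myosin genes lower, where 8.28% of all 19352 tested genes were lower, 5.82% were higher and 14.1% changed in either direction. Myh15, Myl1, Myo3b, Myo7b, Myo1h, Myo1f, Myo5a, Myo5c, Myo9b and Myh10 make up the 10. However, 5 of them (Myh15, Myl1, Myo1h, Myo3b and Myo7b) belong to the 7 genes that reached the filter level in all 3 libraries of 1 group alone, the scrambled one, so they passed the filter through the group where they are high. Among the 30 that reached it in all 6 libraries, 5 fell. The count depends on single libraries, as does the share of all genes that were lower. It was 4 without library 3 (beside 2.96% of all genes lower), 4 without library 30 (2.54%), 6 without library 31 (3.47%) and 7 without library 28 (5.18%). Without library 2600 it was 10 (6.29%) and without library 2 it was 14 (12%). Scaling by library totals alone gave 19 (20.5%), the same 10 with Myh9, Myh14, Myl12a, Myl12b, Myo1e, Myo1g, Myo9a, Myo10 and Myo16. Myh15, Myo1f, Myo5a and Myo5c were called under every one of these omissions.

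The median log2 change of the 37 tested genes was -0.37, beside 0.04 over all tested genes, and 27 of the 37 lay below 0. These include the 7 that passed the filter through the scrambled group, all 7 below 0. The other 30 had a median of -0.22, with 20 below 0. With scaling by library totals alone the medians of the 37 and of all genes were -0.73 and -0.32. The groups did not overlap for 16 genes that were lower and 2 that were higher in S100a11 shRNA libraries, where 18.1% and 16.5% of all tested genes showed this. The same 7 genes are among the 16, so the filter favours the lower direction here, and the other 30 held 9 lower and 2 higher. All 50 genes together held 0.205% to 0.210% of the counts in S100a11 shRNA libraries and 0.297% to 0.313% in scrambled libraries. On the CPM scale their sum was 2221 to 2493, against 2626 to 2710.

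**Figure D1:**
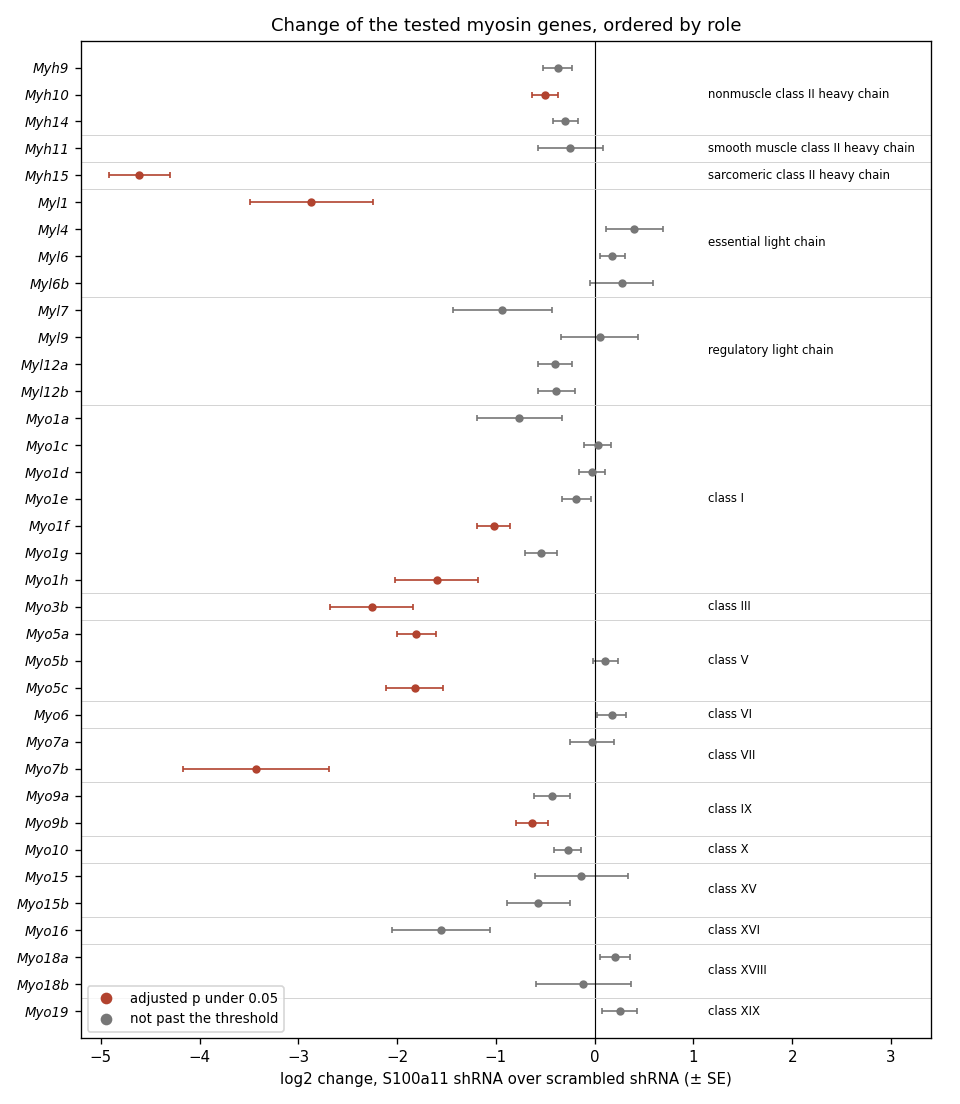
Log2 change (S100a11 shRNA over scrambled shRNA) with its SE for 36 of the 37 tested myosin genes, ordered by role; red points passed an adjusted p of 0.05. The 10 red points all lie below 0, from Myh15 at -4.61 to Myh10 at -0.50, while the highest point, Myl4 at 0.40, did not pass.

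In bulk liver RNA, fewer cells of a type and less RNA per cell cannot be told apart, and this bears on every value given here. Markers of several nonparenchymal cell types were lower in part, and their counts stand beside 8.28% of all tested genes lower and 5.82% higher. The 12 cholangiocyte markers summed to 175 to 199 CPM in S100a11 shRNA libraries, against 558 to 700 CPM in scrambled libraries, and 10 of the 12 fell. Of 10 macrophage markers in the table, 7 fell, with sums of 258 to 544 CPM against 539 to 772 CPM. Of 12 stellate cell markers 8 fell, with sums of 569 to 895 CPM against 1135 to 1555 CPM. Lrat, Reln, Hgf and Colec11 of the stellate list did not pass (log2 change 0.053, -0.17, -0.20 and -0.18). The hepatocyte list summed to 41330 to 50500 CPM in S100a11 shRNA libraries and 29350 to 35870 CPM in scrambled libraries, with 2 of 8 genes higher (Serpina1c and Cyp2e1) and 0 lower. Of the smaller lists, 1 of 6 T and NK cell genes fell (Il7r), as did 1 of 5 B cell genes (Ighm), 1 of 3 neutrophil genes (Mpo) and 1 of 4 proliferation genes (Mki67). Mpo, and Cldn4 among the 10 cholangiocyte markers that fell, reached the filter level in scrambled libraries alone. Both were thus tested through the group where they are high. Lists this short cannot show whether 1 fallen gene differs from the share over all tested genes. Of 8 endothelial genes 1 rose (Clec4g) and 1 fell (Lyve1), and the erythroid gene Alas2 rose. Of 4 mesothelial and 4 cardiac genes 0 passed in edgeR (1 and 0 at an unadjusted p under 0.05), and the cardiac hormone gene Nppa had 0 counts in every library. The part of these cell types in the changes of the myosin genes was not tested.

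**Figure D2:**
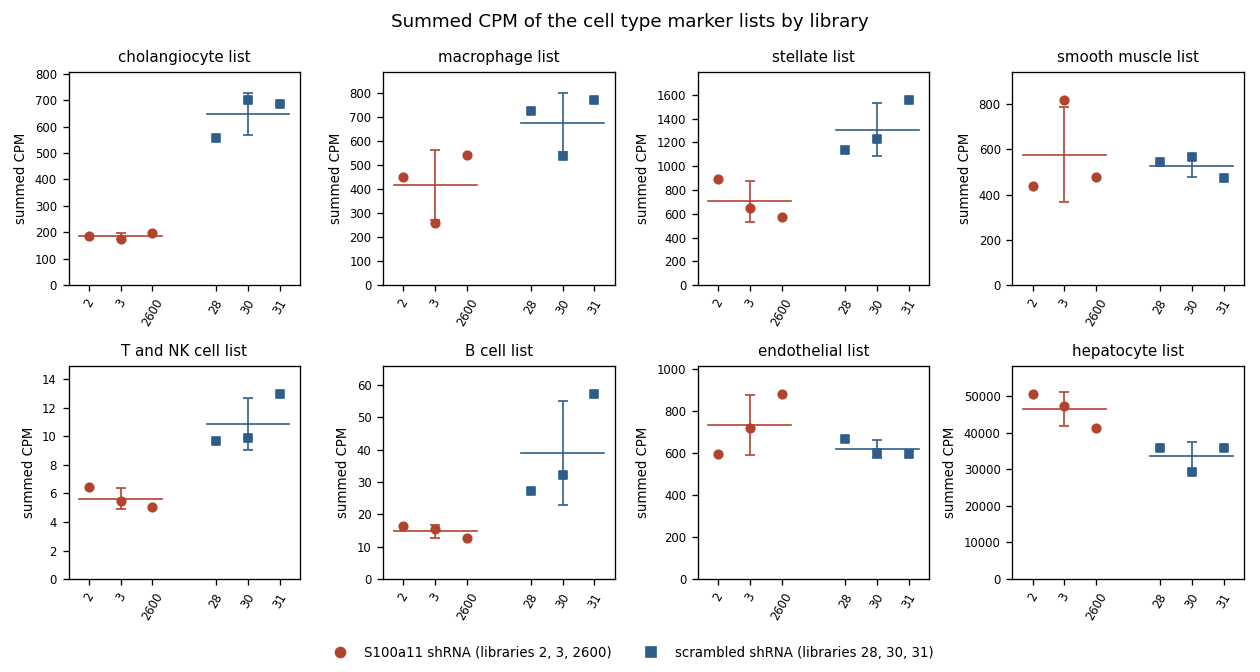
Summed CPM of 8 cell type marker lists in each library; points are libraries, lines the group means and bars the SD (n = 3 each). The cholangiocyte and stellate sums of the 3 S100a11 shRNA libraries lie below all 3 scrambled libraries, as do the T and NK cell and B cell sums. The smooth muscle sums overlap, but they are mostly Mylk (382 to 758 CPM in S100a11 shRNA libraries). Of the 10 tested smooth muscle markers, 9 had a log2 change below 0, 1 (Mylk) lay above it, and 1 passed.

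Upstream sequences are shown for Myh15, Myo5c, Myo1f and Myo9b, called genes at different levels, and for Myl9, a regulatory light chain that did not pass the test. They come from the RefSeq promoter table (GRCm38.p6), read 5′ to 3′ for the gene's strand and cut where the gene body of the deposited table begins. Capitals mark a match to 1 of 3 motifs.
Myh15, chr16:49057150-49057399 (+ strand): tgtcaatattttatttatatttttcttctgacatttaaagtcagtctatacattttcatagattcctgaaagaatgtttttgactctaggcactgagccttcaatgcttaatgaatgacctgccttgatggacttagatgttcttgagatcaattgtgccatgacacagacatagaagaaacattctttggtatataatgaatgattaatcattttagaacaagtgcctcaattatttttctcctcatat
Myo5c, chr9:75231764-75232013 (+ strand): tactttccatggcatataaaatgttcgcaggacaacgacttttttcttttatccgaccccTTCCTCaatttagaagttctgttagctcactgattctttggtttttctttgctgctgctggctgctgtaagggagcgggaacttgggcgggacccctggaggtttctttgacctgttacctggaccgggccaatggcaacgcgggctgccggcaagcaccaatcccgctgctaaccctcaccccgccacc
Myo1f, chr17:33555457-33555706 (+ strand): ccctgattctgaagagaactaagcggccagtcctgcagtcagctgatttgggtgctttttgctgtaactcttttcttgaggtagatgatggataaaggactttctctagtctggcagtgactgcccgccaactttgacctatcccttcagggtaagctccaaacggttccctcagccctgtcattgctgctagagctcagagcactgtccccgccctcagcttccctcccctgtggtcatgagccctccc
Myo9b, chr8:71272464-71272713 (+ strand): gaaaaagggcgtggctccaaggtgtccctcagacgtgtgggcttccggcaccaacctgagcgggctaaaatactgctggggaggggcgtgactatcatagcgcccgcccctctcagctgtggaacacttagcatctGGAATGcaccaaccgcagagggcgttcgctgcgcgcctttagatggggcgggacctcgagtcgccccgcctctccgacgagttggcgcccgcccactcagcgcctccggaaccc
Myl9, chr2:156775214-156775419 (+ strand): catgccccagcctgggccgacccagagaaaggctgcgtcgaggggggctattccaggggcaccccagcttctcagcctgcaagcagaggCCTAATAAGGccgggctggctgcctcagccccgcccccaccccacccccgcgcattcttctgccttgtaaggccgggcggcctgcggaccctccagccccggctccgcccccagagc
The windows differ in base composition, with 31.2% G or C for Myh15, 52.8% for Myo5c, 53.6% for Myo1f and 64.8% for Myo9b. The 3 motifs were searched on both strands in the 250 bases before each start, and they can overlap: GGAATG, the core bound by TEAD factors; GAGGAA, a core bound by PU.1 of myeloid cells, seen as TTCCTC on the other strand; and the CArG box bound by serum response factor, given by name. RefSeq windows were found for 44 of the 50 myosin genes and for 9 of the 10 called. GGAATG stood in 4 of the 10 windows of these 9 genes (Myh10, Myl1, Myo1h and Myo9b) and in 3 of 28 windows of other tested members, where 12.6% of all 32851 windows hold it. GAGGAA stood in 2 of 10 (Myl1 and Myo5c) and 6 of 28, beside 23.3% of all. The CArG box stood in 0 of 10 and 4 of 28 (Myl6, Myl7, Myl9 and Myo1e), beside 1.47% of all. These are letter matches only.

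The nonmuscle class II heavy chains form the contractile bundles of the cell cortex. Myh10, the IIB heavy chain (chr11:68691559-68816632, mm10), had 40.1, 45.0 and 46.9 CPM in S100a11 shRNA libraries 2, 3 and 2600, against 56.2, 65.1 and 65.4 CPM in scrambled libraries 28, 30 and 31. The groups did not overlap, and Myh10 was 1.41-fold lower (log2 change -0.50 ± 0.13 SE, edgeR adjusted p = 0.0379). This call was lost without library 3, 28, 30 or 31 (adjusted p of 0.089, 0.069, 0.16 and 0.13) and with no filter on low counts (0.06).

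Myh9, the IIA heavy chain and the most highly counted myosin gene, had 512, 461 and 480 CPM in S100a11 shRNA libraries, against 622, 592 and 671 CPM in scrambled libraries. Every S100a11 shRNA library lay below every scrambled library, but the log2 change of -0.37 ± 0.15 did not pass (edgeR adjusted p = 0.129). DESeq2 gave 0.03 and limma voom 0.11, and omitting single libraries gave 0.06 to 0.34 in edgeR. Myh14, the IIC heavy chain, had 43.6, 46.1 and 51.2 CPM against 61.1, 58.1 and 53.9 CPM, also without overlap and not past the threshold (-0.30 ± 0.13, adjusted p = 0.158). Per kilobase, Myh9 made up 77.8% ± 2.02 of the nonmuscle heavy chains in S100a11 shRNA libraries and 77.7% ± 1.41 in scrambled libraries (SD, n = 3 each). The log2 ratio of Myh10 to Myh9 differed by -0.12 ± 0.13 between the groups (exact permutation p = 0.6, two-sided).

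Myh11, the smooth muscle heavy chain, had 8.01, 8.90 and 6.37 CPM in S100a11 shRNA libraries, against 11.3, 4.55 and 11.8 CPM in scrambled libraries (log2 change -0.25 ± 0.33, adjusted p = 0.663). The groups overlapped because scrambled library 30 was the lowest of the 6. Acta2, smooth muscle actin, was lowest in the same library, at 2.78 CPM, and so were Myl9 (0.945 CPM) and the smooth muscle calponin Cnn1 (0.0727 CPM, named after its value was seen). Of the 10 tested smooth muscle markers these 2, Acta2 and Cnn1, were lowest in library 30, while Smtn was highest there (52.6 CPM). In the comparison of the groups 1 of the 10 fell, beside 8.28% of all tested genes lower. It was Des, the muscle intermediate filament desmin that the stellate list also holds.

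Among 10 sarcomeric heavy chains, those of striated muscle, Myh15 was the only tested one. Myh15 (chr16:49057486-49199104) is a divergent class II heavy chain known in mammals from eye muscle. It held 14, 11 and 7 counts in S100a11 shRNA libraries, against 353, 241 and 435 counts in scrambled libraries, or 0.217, 0.176 and 0.159 CPM against 5.25, 3.50 and 5.02 CPM. It was 24.4-fold lower, with a log2 change of -4.61 ± 0.31 (adjusted p = 0.00229). Its change ran from -4.50 to -4.78 when each library was left out, with adjusted p of at most 0.012.

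The other 9 sarcomeric heavy chains held at most 13 counts in any library, apart from Myh1, Myh2 and Myh7 in scrambled library 30. Myh2 had 0, 0 and 0 counts in S100a11 shRNA libraries, against 0, 180 and 5 counts in scrambled libraries. Myh1 had 0, 2 and 1 counts, against 0, 104 and 2 counts. Myh7, the slow and cardiac chain, had 0, 1 and 0 counts, against 4, 17 and 0 counts. The high value lay in library 30 in all 3 cases. The genes of Myh1, Myh2, Myh3, Myh4, Myh8 and Myh13 lie in a row on chromosome 11 and have closely similar sequences, so the split of reads among them is uncertain.

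Several skeletal muscle markers were also highest in library 30, among them Acta1 and Atp2a1, which were named after their values were seen. Acta1, skeletal actin, had 0.139, 0.0959 and 0.0682 CPM in S100a11 shRNA libraries, against 0.134, 2.17 and 0.254 CPM in scrambled libraries. Atp2a1, the calcium pump of fast fibres, had 0.0620, 0.128 and 0.455 CPM against 0.0297, 1.60 and 0.150 CPM. Of 7 tested skeletal markers 1 fell, Mybpc2 (14.3%, beside 8.28% of all tested genes lower). Mybpc2 had 7, 4 and 1 counts against 16, 27 and 24 counts, highest in library 30. It reached the filter level in scrambled libraries alone, the group where it is high. The sum of the list (109 to 337 CPM, against 142 to 227 CPM) was mostly Neb. Myh15 did not share the library 30 pattern, since that library was the lowest of the 3 scrambled ones for it.

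**Figure D3:**
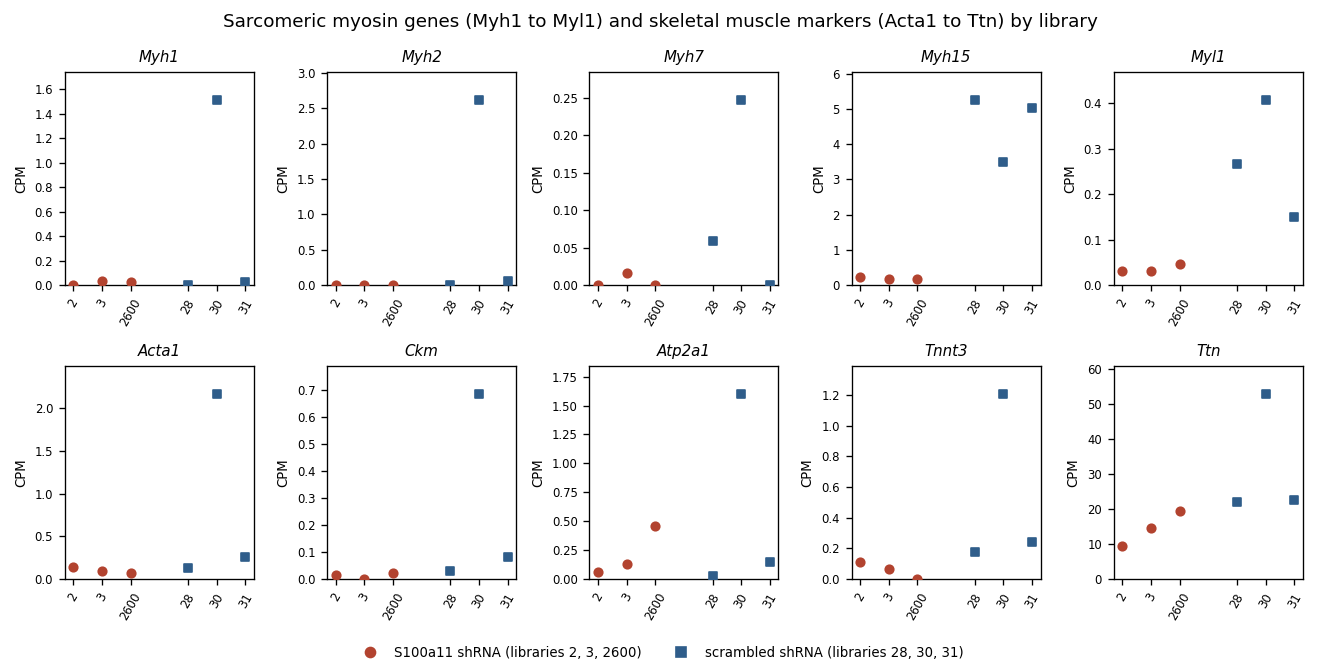
CPM in each library for 4 sarcomeric heavy chains, the light chain Myl1 and 5 skeletal muscle markers; each point is a library and each panel has its own axis from 0. Myh1, Myh2, Acta1, Ckm, Atp2a1 and Tnnt3 are high in scrambled library 30 (Myh2 2.62 CPM), while Myh15 is high in all 3 scrambled libraries.

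Light chains bind the neck of the heavy chain. Among the essential ones, Myl1 of fast muscle (chr1:66924295-66945404) held 2, 2 and 2 counts in S100a11 shRNA libraries, against 18, 28 and 13 counts in scrambled libraries, with the highest count in library 30. Its log2 change was -2.87 ± 0.62 (adjusted p = 0.0159), and the call was lost without library 3 (adjusted p = 0.083) or library 30 (0.065). Myl6, the essential chain of nonmuscle and smooth muscle myosin, had 60.4, 61.6 and 64.7 CPM in S100a11 shRNA libraries, against 57.2, 48.9 and 59.0 CPM in scrambled libraries. These groups did not overlap, with the S100a11 shRNA libraries higher, and the log2 change of 0.18 ± 0.13 did not pass (adjusted p = 0.397). With scaling by library totals alone it was -0.18. Myl4, known from atria, and Myl6b averaged 1.37 ± 0.35 and 0.933 ± 0.27 CPM in S100a11 shRNA libraries, against 1.03 ± 0.17 and 0.777 ± 0.19 CPM in scrambled libraries (SD, n = 3 each), and neither passed.

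The regulatory chains Myl12a and Myl12b are nonmuscle chains whose phosphorylation switches class II motors on. Myl12a had 38.5, 29.6 and 25.9 CPM in S100a11 shRNA libraries, against 38.5, 38.9 and 47.2 CPM in scrambled libraries. Myl12b had 50.5, 37.2 and 33.2 CPM, against 47.2, 48.7 and 62.2 CPM. In both genes library 2 stood at the scrambled level and the other 2 libraries below it. Over all 6 libraries neither passed (log2 change -0.40 ± 0.17 for Myl12a with adjusted p = 0.160, and -0.39 ± 0.19 for Myl12b with adjusted p = 0.206). Without library 2 both changed by -0.61, with adjusted p of 0.016 for Myl12a and 0.019 for Myl12b. The other 5 omissions gave -0.29 to -0.45 for Myl12a (adjusted p of 0.23 to 0.4) and -0.25 to -0.46 for Myl12b (0.25 to 0.5), none past the threshold. Myl9, the regulatory chain of smooth muscle, averaged 1.93 ± 0.66 CPM in S100a11 shRNA libraries and 1.84 ± 0.78 CPM in scrambled libraries and did not pass. Myl7, an atrial chain, had 3 to 9 counts against 13 to 24 counts and did not pass. Myl2, the ventricular and slow muscle chain, was not tested, with 0, 0 and 0 counts against 2, 12 and 2 counts, again highest in library 30.

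Class I myosins are motors with 1 head that link membrane to actin. Myo1f, known from neutrophils and other myeloid cells (chr17:33555719-33607764), had 25.3, 21.0 and 31.1 CPM in S100a11 shRNA libraries, against 56.2, 47.4 and 53.3 CPM in scrambled libraries. The groups stood well apart, a 2.03-fold lower level in S100a11 shRNA libraries (log2 change -1.02 ± 0.17, adjusted p = 0.00786). Leaving out single libraries gave -0.90 to -1.19, each past the threshold. Myo1g, known from lymphocytes and other blood cells, had 12.8, 10.1 and 14.1 CPM against 17.0, 18.4 and 18.4 CPM, with no overlap and an adjusted p just above the threshold (-0.54 ± 0.16, edgeR adjusted p = 0.0559). Myo1g passed with DESeq2 (adjusted p = 0.023), with limma voom (0.048), with a filter of 1 CPM (0.046) and without library 2 (0.038). It did not pass with no filter (0.073) or without library 3 (0.14), 2600 (0.052), 28 (0.12), 30 (0.19) or 31 (0.15). Of the macrophage list 7 of 10 genes fell, among them Trem2 and Itgax, beside 8.28% of all tested genes lower. Trem2 had 7.84, 4.40 and 4.50 CPM in S100a11 shRNA libraries, against 25.7, 22.4 and 28.6 CPM in scrambled libraries. Csf1r, Cd5l and Clec4f of that list did not pass (log2 change -0.55, -0.42 and 0.00045). Of the 3 tested neutrophil genes, S100a8 and S100a9 did not pass either (-0.87 and -0.64). The third, Mpo, fell (-2.77, adjusted p = 0.0192), with 7, 0 and 4 counts against 36, 25 and 39 counts.

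Myo1c had 108, 93.7 and 88.2 CPM in S100a11 shRNA libraries, against 84.7, 96.2 and 103 CPM in scrambled libraries. Myo1d had 52.6, 43.0 and 46.6 CPM against 45.3, 47.6 and 52.0 CPM. Both are widely expressed short-tailed motors, and their groups overlapped. Myo1e, a long-tailed motor of endocytosis, had 65.5, 73.4 and 91.2 CPM against 88.1, 83.5 and 89.9 CPM, also with overlap. Myo1h fell to 15, 16 and 3 counts in S100a11 shRNA libraries, against 33, 49 and 51 counts in scrambled libraries (-1.60 ± 0.42, adjusted p = 0.0373). It lost the call in 5 of the 6 omissions, all but that of library 2, with adjusted p up to 0.14. In the GENCODE M21 annotation Myo1h shares 1530 exonic bases with Kctd10 on the other strand. In the deposited coordinates, where Myo1h differs, both genes overlap by 1010 bases. Kctd10 held 8299 counts beside 167 for Myo1h, so the values of Myo1h are uncertain without the strand setting. Myo1a, a brush border motor, averaged 0.288 ± 0.15 CPM in S100a11 shRNA libraries and 0.471 ± 0.13 CPM in scrambled libraries and did not pass.

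Class V motors carry vesicles on actin, and 2 of the 3 fell, beside 8.28% of all tested genes lower. A class of 3 genes is too small to be set against that share. Myo5a, known from melanosome and neuronal vesicle transport (chr9:75071015-75223688), had 14.8, 11.3 and 8.60 CPM in S100a11 shRNA libraries, against 37.9, 42.2 and 41.1 CPM in scrambled libraries. It was 3.49-fold lower (log2 change -1.80 ± 0.20, adjusted p = 0.0032), and between -1.64 and -2.06 with single libraries left out. Myo5c, known from glandular epithelium and lying next to Myo5a (chr9:75232014-75305451), had 1.47, 2.56 and 1.55 CPM against 4.93, 8.30 and 6.61 CPM. It was 3.54-fold lower (-1.82 ± 0.29, adjusted p = 0.0071). Myo5b, which works with Rab11 in recycling endosomes and at the bile canaliculus, had 78.6, 89.0 and 73.2 CPM in S100a11 shRNA libraries, against 75.6, 73.8 and 74.2 CPM in scrambled libraries. Its groups overlapped (0.11 ± 0.13, adjusted p = 0.621). Of the bile duct markers, Pkhd1, which encodes the cilium protein fibrocystin, had 64.4, 81.8 and 79.7 CPM in S100a11 shRNA libraries, against 221, 252 and 202 CPM in scrambled libraries.

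The share of each class V gene in the summed per-kilobase level of its class does not depend on the scaling of the library. It does depend on the gene lengths used, and Myo5c has 6733 bases as deposited but 9697 in GENCODE M21. Myo5b held 86.9%, 88.9% and 90.2% in S100a11 shRNA libraries, against 70.1%, 64.9% and 66.9% in scrambled libraries. Myo5a held 8.40% ± 2.08 against 24.1% ± 0.71, and Myo5c 2.94% ± 0.69 against 8.62% ± 1.98 (SD, n = 3 each). Class I shifted as well. Myo1f held 8.17% ± 1.21 of the class I level in S100a11 shRNA libraries and 15.6% ± 1.23 in scrambled libraries (SD, n = 3 each). Log2 ratios within classes were compared for 5 pairs of genes, chosen after their values were seen. The ratio differed by -1.94 ± 0.22 (SE) for Myo5a to Myo5b and by -1.95 ± 0.29 for Myo5c to Myo5b. For each, the two-sided exact permutation p was 0.1, the smallest that 3 libraries against 3 can give, and 0.167 after adjustment over the 5 pairs.

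**Figure D4:**
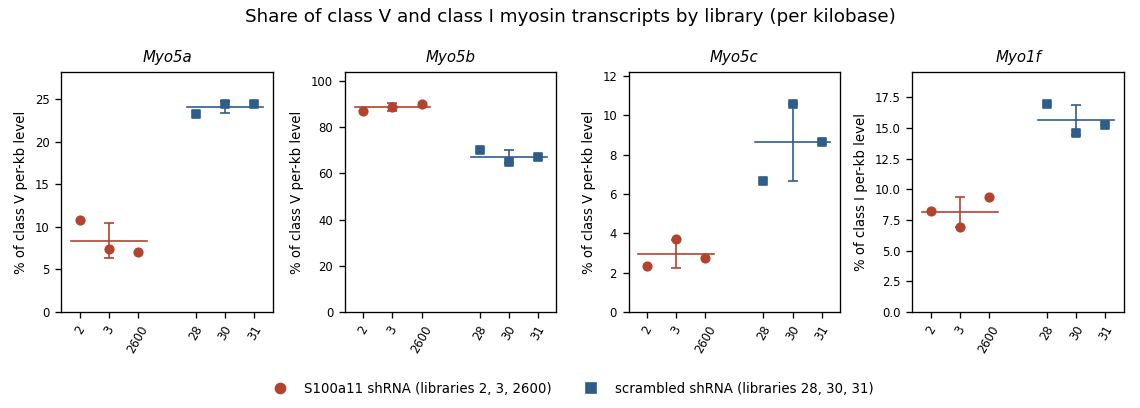
Share of Myo5a, Myo5b and Myo5c in the class V level and of Myo1f in the class I level, per kilobase, in each library; lines are group means and bars the SD (n = 3 each). Myo5b takes 88.7% on average in S100a11 shRNA libraries and 67.3% in scrambled libraries, with no overlap in any of the 4 panels.

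Myo3b of class III, a motor with a kinase domain known from inner ear stereocilia (chr2:70039126-70429198), held 16, 7 and 15 counts in S100a11 shRNA libraries, against 64, 100 and 74 counts in scrambled libraries. The groups stood apart (-2.26 ± 0.42, adjusted p = 0.0117), and the call was lost without library 3 (adjusted p = 0.052) or library 30 (0.053). Myo7b of class VII, a motor at the tips of brush border microvilli, held 7, 1 and 10 counts against 26, 115 and 124 counts. Its level in scrambled library 28 was well under that of the other 2, and its log2 change was -3.43 ± 0.74 (adjusted p = 0.0192). Without library 3, 30 or 31 the change was -2.87, -3.09 and -3.24, no longer past the threshold (adjusted p of 0.077, 0.07 and 0.057). Of the brush border list, Cdhr2 and Ush1c were not tested. Vil1, like Myo7b, reached the filter level in all 3 libraries of the scrambled group alone, where it is high. The actin bundlers Vil1 and Espn and the membrane linker Ezr fell, 3 of 4 tested genes, beside 8.28% of all tested genes lower. The fourth, the microvillar cadherin Cdhr5, had 80.9, 81.7 and 71.8 CPM in S100a11 shRNA libraries, against 51.0, 62.6 and 68.2 CPM in scrambled libraries, and did not pass (0.37 ± 0.15, adjusted p = 0.131). Cdhr5 made up most of the list's sum, which was 82.9 to 93.9 CPM against 71.9 to 95.0 CPM. Myo7a, known from the inner ear and retina, had 59.4, 95.6 and 116 CPM in S100a11 shRNA libraries, against 95.5, 97.8 and 83.5 CPM in scrambled libraries, with library 2 the lowest of the 6 and no change past the threshold. The log2 ratio of Myo7b to Myo7a differed by -3.65 ± 1.36 (exact permutation p = 0.1, two-sided).

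Class IX motors carry a domain that switches small GTPases off. Myo9b, known from leukocytes (chr8:71272714-71360712), had 147, 167 and 205 CPM in S100a11 shRNA libraries, against 282, 275 and 249 CPM in scrambled libraries. It was 1.55-fold lower (log2 change -0.64 ± 0.16, adjusted p = 0.0318), and the call was lost without library 3, 28, 30 or 31 (adjusted p of 0.098, 0.1, 0.12 and 0.072). In the GENCODE M21 annotation Myo9b shares 116 exonic bases with Haus8 on the other strand. Haus8 itself fell (-1.32 ± 0.22, adjusted p = 0.00868), and its counts came to 10.7% of those of Myo9b. Myo9a had 70.0, 61.9 and 96.3 CPM against 117, 94.9 and 95.3 CPM, with overlap, and did not pass (-0.43 ± 0.19, adjusted p = 0.159). Without library 2600 its change was -0.65 with an adjusted p of 0.046, and the other 5 omissions gave -0.31 to -0.48, with adjusted p of 0.18 to 0.41. The log2 ratio of Myo9b to Myo9a differed by -0.20 ± 0.14 (exact permutation p = 0.3, two-sided).

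**Figure D5:**
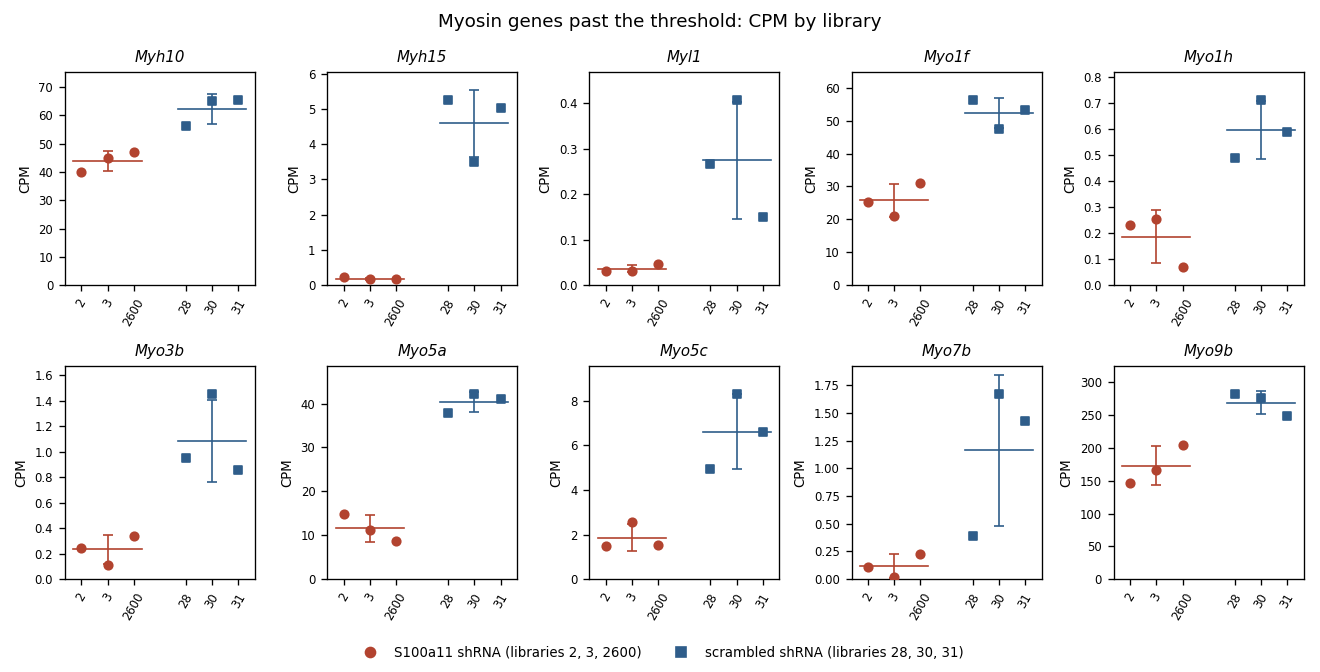
CPM in each library for the 10 myosin genes past the threshold, each panel on its own axis from 0; lines are group means and bars the SD (n = 3 each). In every panel the 3 S100a11 shRNA libraries lie below the 3 scrambled libraries, closest together in Myh10 and Myo9b and farthest apart, by fold, in Myh15.

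The remaining classes held several highly counted genes that did not pass. Myo10, a motor of filopodia, had 186, 195 and 225 CPM in S100a11 shRNA libraries, against 242, 240 and 251 CPM in scrambled libraries, without overlap (-0.27 ± 0.13, adjusted p = 0.212). Myo6, the motor that walks towards the minus end of actin, had 124, 169 and 149 CPM against 137, 131 and 125 CPM. Myo18a, a myosin that binds actin with little motor activity and is known from the Golgi, had 293, 353 and 381 CPM against 309, 299 and 284 CPM. Groups overlapped in both genes. Myo19, the motor of mitochondria, had 24.3, 37.2 and 27.4 CPM against 25.9, 26.2 and 22.4 CPM, also with overlap, and shares exonic bases with Pigw and Znhit3 on the other strand. Myo16, known from neurons, had 24, 5 and 9 counts against 38, 63 and 43 counts, just short of the threshold (-1.56 ± 0.50, adjusted p = 0.0722). Without library 2 the change of Myo16 was -2.32 with an adjusted p of 0.023, and the other 5 omissions gave -1.12 (without library 3) to -1.73, with adjusted p of 0.1 to 0.24. Myo15, Myo15b and Myo18b overlapped between the groups. The genes Myh3, Myh4, Myh6, Myh7b, Myh8, Myh13, Myl3, Myl10 and Myo3a had at most 13 counts in any library and were not tested, with Myh6 and Myl10 under 3 counts in all 6.

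Levels of different genes were compared per kilobase of the length in the deposited table. In S100a11 shRNA libraries Myl6 was highest at 93.6 ± 3.34 CPM per kilobase, followed by Myh9 (37.5 ± 1.98), Myo9b (23.7 ± 4.03) and Myl12b (23.6 ± 5.29). In scrambled libraries the same 4 led, with 82.8 ± 8.15 for Myl6, 48.6 ± 3.07 for Myh9, 36.9 ± 2.37 for Myo9b and 30.8 ± 4.83 for Myl12b (SD, n = 3 each). Myo9b and Myl12b differed by less than their spread within S100a11 shRNA libraries, and Myo18a (23.0 ± 3.04) lay within it too. The order depends on the length used. The table gives Myl6 0.665 kilobases where GENCODE M21 gives 3.19. With the longer value Myl6 would stand at 19.5 CPM per kilobase in S100a11 shRNA libraries and 17.3 in scrambled libraries. Myl12b has 1.711 kilobases in the table and 2.77 in GENCODE M21, and would stand at 14.55 and 19.04. Myo10, whose lengths are equal, stood above that, at 19.96 and 24.15. Of the 50 genes, Myo1f ranked 17 in S100a11 shRNA libraries and 13 in scrambled libraries, and Myh15 ranked 35 in S100a11 shRNA libraries and 27 in scrambled libraries.

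Other genes of actin and myosin control were read from a list of 64, of which 57 were tested. Of these, 10 fell and 2 rose (17.5% and 3.51%, beside 8.28% and 5.82% of all tested genes). Flna, the actin crosslinker filamin A, had 132, 113 and 127 CPM in S100a11 shRNA libraries, against 220, 223 and 243 CPM in scrambled libraries (log2 change -0.88 ± 0.13, adjusted p = 0.00612). Actg1, nonmuscle gamma actin, had 67.0, 49.3 and 37.1 CPM against 100.4, 83.6 and 115 CPM (-0.96 ± 0.22, adjusted p = 0.0236). S100a4, an S100 protein that binds the nonmuscle IIA heavy chain, had 1.01, 0.687 and 0.455 CPM against 1.78, 1.80 and 1.99 CPM (-1.34 ± 0.30, adjusted p = 0.0214). In all 3 genes the groups did not overlap. Anln, a scaffold of the cytokinetic ring, the tropomyosin Tpm1, the muscle filamin Flnc, the GTPase Rhoc and the calponin Cnn2 fell as well, together with Tagln2 and Tpm4.

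The risers were the tropomyosin Tpm2, with 14.4, 19.96 and 12.9 CPM in S100a11 shRNA libraries, against 9.88, 6.63 and 6.76 CPM in scrambled libraries (1.03 ± 0.23, adjusted p = 0.0212), and Dapk1, another kinase of the regulatory light chain (0.83 ± 0.22, adjusted p = 0.036). Of the kinases that phosphorylate the regulatory light chain, Mylk, Rock1 and Rock2 did not pass. Mylk had a log2 change of 0.21 ± 0.26, Rock1 -0.077 ± 0.12 and Rock2 0.019 ± 0.13. Beta actin, Actb, changed by -0.47 ± 0.23 (adjusted p = 0.208) and Acta2 by -0.41 ± 0.37, neither past the threshold. The number of lower genes on this list, of 57 or 58 tested, moved with the share of all genes lower. It was 1 without library 30 (beside 2.54% of all genes lower), 2 without library 3 (2.96%) and 3 without library 31 (3.47%). It was 4 without library 28 (5.18%), 5 without library 2600 (6.29%) and 17 without library 2 (12%). The number of higher genes was 0 without library 3, 30 or 31, beside 427, 221 and 411 of all genes higher.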

How the data were processed

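Liver total RNA was extracted with Trizol and a column kit, treated with DNase and made into stranded, ribosomal RNA-depleted libraries from 100 ng, per the labels. The authors deposited raw counts per Ensembl gene together with each gene's length in bases, an other value that was used for per-kilobase levels. The build is mm10, per the submitters' processing notes. For the aligner, the counter and its strand mode, nothing is given in the sources used here. All 50 members matched GENCODE M21 by identifier, and lengths were equal for 31.

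Counts of 3 S100a11 shRNA and 3 scrambled libraries were fitted with R 4.3.3, edgeR 4.0.16 (filterByExpr with a minimum count of 10 and a minimum total of 15, TMM, glmQLFit with legacy = FALSE, glmQLFTest) and Benjamini-Hochberg adjustment over 19352 genes, with a threshold of 0.05. SE is the log2 change divided by the square root of F. All library pairs differed by a chi-square per gene of at least 48.4. Alternatives used DESeq2 1.42.0, limma 3.58.1 voom, other scalings, filters and thresholds, and omitted libraries. On simulated data the fit was tested for recovery of known changes. Exact permutation tests used scipy 1.17.1. Members and lists were chosen with earlier results of these data known. Every member could be named, apart from a result not reported here, with values in all libraries for those past the threshold or averaging 10 CPM or more. Related genes were to be named by the first 8 by p in each direction, with Mylk, Rock1, Rock2, Acta2 and Actb. Tagln2 and Tpm4 were named beyond that.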

Additional observations from a re-analysis of the deposited data

How the results depend on the processing

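No paired analysis was possible because the library numbers (2, 3 and 2600, against 28, 30 and 31) are not shared between the groups. Scaling by library totals alone gave 19 myosin genes lower, 397 of all genes higher and 3970 lower, and 0 related genes higher and 25 lower. At an adjusted p of 0.1, 1819 genes were higher, and DESeq2 called 8 marker genes higher. In all alternatives run, 0 myosin genes were higher, although 17 of the 37 tested had an unadjusted p under 0.05, in either direction. Leaving out 1 library at a time gave 4 to 14 myosin genes lower, 221 to 1806 of all genes higher and 503 to 2370 lower, 0 to 3 related genes higher and 1 to 17 lower, and 3 to 5 markers higher and 17 to 39 lower. Among log2 changes that were not called, scaling by totals turned Myl9 (-0.30), Myo6 (-0.19), Myl6 (-0.18), Myl6b (-0.072), Myo1c (-0.33), Myo18a (-0.17), Myo19 (-0.11) and Myo5b (-0.25). Leaving out libraries turned the sign, at least once, of Myl9 (-0.257 to 0.305), Myo18b (-0.854 to 0.238), Myo7a (-0.274 to 0.164), Myl6b (-0.0249 to 0.487), Myo15 (-0.447 to 0.295), Myo1c (-0.0905 to 0.0973) and Myo1d (-0.139 to 0.039). The cause was not tested. Values of low genes are limited by depth: Myl1, Myo1h, Myo3b and Myo7b held at most 124 counts in any library.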
